A study of Mus musculus with 4 samples.

Results

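Mammary organoids that carried a truncating mutation in 1 copy of Brca2 (Brca2mut/WT) were compared after hydroxyurea (HU) and without it (control). The study grew organoids, 3D epithelial structures in a gel matrix, from dissociated mammary glands of adult virgin female mice and profiled them by droplet single-cell RNA sequencing, with 1 library of untreated and 1 of HU-treated organoids from wild-type and from Brca2mut/WT mice, 4 libraries in all. Per the methods, HU was given as a pulse and washed out at each passage, organoid cultures were kept at low oxygen, and frozen organoids were thawed and cultured again before capture. Both Brca2mut/WT libraries carried the same germline mutation, so the treatment was the difference named between them. Per the methods, early and late passages of organoids from aged mice were profiled, but which cells of a library came from which passage is not given in the sources used here. Cells were kept when they had 1000 to 6000 detected genes and under 5% of their unique molecular identifiers (UMIs, single captured transcripts) on mitochondrial genes. That left 4138 of 8113 control cells (51.0%) and 3293 of 7639 HU cells (43.1%), or 7431 of the 17360 cells kept over the 4 libraries. The files hold 33268 barcodes in all. The study states a larger number of retained cells than either of these under the same filter, and the difference was not resolved.

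HU starves replicating cells of the deoxynucleotides from which DNA is built, so that replication forks stall. Brca2 protects stalled forks and serves the repair of broken DNA by homologous recombination. The mammary epithelium holds an outer layer of contractile basal cells marked by keratin 14 (Krt14), inner luminal cells that carry hormone receptors and secrete amphiregulin (Areg, HR+ luminal), and luminal cells without these receptors (HR- luminal), from which milk-secreting cells arise. Stalled replication is known to activate p53, and DNA that reaches the cytosol can start a type I interferon response. Cells at low oxygen switch on a separate programme through the transcription factor Hif1, which raises glycolysis and genes such as Vegfa.

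A cell was placed by its own CPM (UMIs of a gene scaled to a fixed total of UMIs), as basal at Krt14 of 500 CPM or more, as HR+ luminal at Areg of 300 CPM or more, and as HR- luminal with both under 300 CPM. Krt14 and Areg are therefore not results. The gates took 3592 control and 2750 HU cells as HR- luminal, 336 and 337 as basal and 140 and 140 as HR+ luminal. Of these, 16 and 17 cells passed both the basal and the HR+ gate, and 86 and 83 kept cells passed none. Several markers that the gates did not use were highest in the gate they name in the control library: Krt5, a basal keratin, had 1757 CPM in basal against 14.0 in HR- luminal cells, Kit, a luminal progenitor receptor, had 104 CPM in HR- luminal against 5.90 in basal cells, and Prlr, the prolactin receptor, had 1178 CPM in HR+ against 88.1 in HR- luminal cells. Aldh1a3, listed with the HR- luminal markers, went against its list, at 22.6 CPM in HR- luminal and 69.4 CPM in HR+ luminal cells. Prom1, listed with the HR+ luminal markers, did so in the HU library. It had 5.46 CPM there in HR+ luminal, 6.34 in HR- luminal and 6.96 in basal cells. Brca2 itself (chromosome 5, 150522630 to 150570329, GRCm38) had 4.32 CPM in control and 3.90 in HU HR- luminal cells, 4.91 and 4.78 in basal and 1.45 and 2.73 in HR+ luminal cells, the last on 5 and 8 UMIs. The wild-type libraries had 5.46 and 5.13 CPM in HR- luminal cells. These counts do not tell the 2 copies of the gene apart, so they check neither the mutation nor the labels.

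The median kept cell had 24576 UMIs in the control and 26893 in the HU library, and 22 cell barcodes occurred in both. More HU cells than control cells exceeded 6000 genes and were removed (31.1% against 24.3%). Most kept cells carried 1 of 4 antibody tags (87.6% and 86.2%). No key to the tags was found, so each tag was read as an unlabelled pool of cells, and it is not known whether a tag stands for the same mouse or passage in both libraries. Pools are shown as the spread inside a library and are not replicates. With 1 library a side no test was possible and no difference below has a replicate check. Intervals are exact 95% limits, Poisson for CPM and Clopper-Pearson for shares, and cover counting error only.

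HR- luminal cells formed a smaller share and basal cells a larger share of the HU library. The HR- luminal share was 86.8% (85.7 to 87.8) in control and 83.5% (82.2 to 84.8) in HU, a difference of -3.29 percentage points. The basal share was 8.12% (7.31 to 8.99) and 10.2%, and the HR+ luminal share 3.38% (2.85 to 3.98) and 4.25%. The pools of 1 library differed far more than the libraries did. In control the HR- luminal share was 92.9% in tag 1, 99.0% in tag 2, 88.1% in tag 3 and 65.9% in tag 4, and in HU it was 89.0%, 94.0%, 88.6% and 48.3%. It was thus lower in HU for tags 1, 2 and 4 and not for tag 3. The basal share went from 5.20% to 9.19% in tag 1, from 0.284% to 3.00% in tag 2, from 9.99% to 9.14% in tag 3 and from 19.6% to 26.0% in tag 4. HR+ luminal cells came mainly from tag 4, of which they were 14.9% in control and 24.9% in HU. With only the cells of 1 dominant tag the HR+ difference turned from 0.87 to -0.30 points, and with stricter gates the basal difference was 0.56 in place of 2.11 points. Of the HR+ cells, 27.1% in HU but 9.29% in control had under 5000 UMIs. With only cells of at least 5000 UMIs the HR+ difference was 0.038 points.

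**Figure D1:**
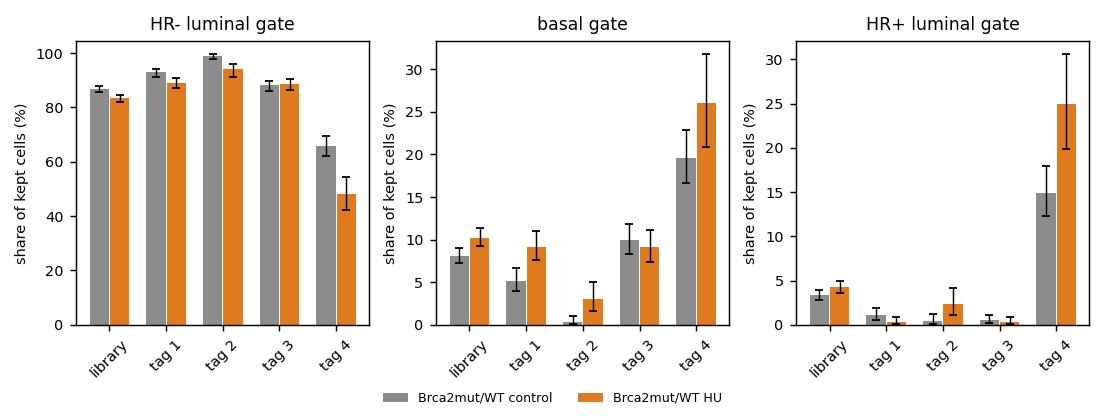
Share of kept cells (%) in the HR- luminal, basal and HR+ luminal gates for the control (grey) and HU (orange) library and for each tag pool, with exact 95% Clopper-Pearson limits. The HR- luminal share differed by 3.29 points between the libraries and ran from 65.9% to 99.0% between the pools of the control library.

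For each gate UMIs were summed per gene and divided by the total of the gate, and genes with 20 CPM or more in 1 of the libraries were compared on the log2 scale of CPM + 1. A gene was called higher or lower where this ratio reached 1.5-fold and every pool with 20 or more cells on both sides moved the same way. Each pool was set against the pool of the same tag in the other library, although their match is not known. A gene that reached 20 CPM in only 1 library could be called only as higher in that library. Counts and medians that hold such genes lean that way. This is not repeated for every such gene below. Among them are Arrdc3, Per1, Myl9 and Letm2 in HR- luminal and Fcgbp and Acta1 in basal cells. In such sums, a change in the make-up of the cells and a change of RNA in each cell cannot be told apart. In HR- luminal cells 5469 genes were compared, of which 13 rose (0.238%) and 24 fell (0.439%). The background of pool differences was wide: tags 1 and 3 of the control library differed past 1.5-fold at 0.311% of genes, but tags 2 and 3 at 24.1%, against 0.987% between the libraries. The same tag set HU against control gave 1.19% for tag 1, 4.11% for tag 2, 1.66% for tag 3 and 5.28% for tag 4. Tag 2 stood apart by its own genes in both libraries. A stricter reading asked that all 4 HU pools lay above, or all below, all 4 control pools, which 6 of the 13 (0.11% of genes) and 4 of the 24 (0.0731%) met.

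Hist1h1c, a linker histone that packs chromatin and is transcribed also outside S phase, had the largest rise of the HR- luminal cells. It is on chromosome 13 from 23738808 to 23740367 of GRCm38 and had 45.2 CPM (43.8 to 46.6) in control and 92.6 (90.3 to 94.8) in HU. Its pools were at 42.5, 60.2, 33.99 and 47.2 CPM for tags 1 to 4 in control and at 101, 69.5, 88.4 and 87.7 in HU. Every HU pool lay above every control pool, with the smallest step in tag 2. The log2 ratio was 1.02 (mean over pools 0.92, SD 0.51). Between the wild-type libraries it was 0.92.

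Other rises with separate pools were those of Arrdc3, an arrestin-like adaptor in receptor trafficking, of Cited4, a coactivator-binding protein of luminal cells, of the microRNA host gene Mir22hg, of the clock gene Per1 and of Taf1d, a subunit of an RNA polymerase I factor. Arrdc3 went from 20.2, 16.4, 19.8 and 12.3 CPM to 37.3, 29.4, 30.3 and 28.7, with no overlap between the groups. Cited4 went from 64.8, 72.5, 46.4 and 60.9 CPM to 105, 176, 85.2 and 79.3, with tag 2 the highest on both sides. Mir22hg rose from 30.7 to 51.1 CPM, Per1 from 12.6 to 20.2 and Taf1d from 185 to 278 over the library. Between the wild-type libraries the log2 ratios of Arrdc3, Cited4, Mir22hg and Per1 were 0.67, 0.71, 0.66 and 0.60.

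The remaining rises were led by contractile and matrix genes that had their highest level in tag 4 of HU. Myl9, a myosin light chain, rose from 14.9 to 29.7 CPM, Ccn2, a matricellular growth factor, from 32.9 to 57.6, and Acta2, smooth muscle actin, from 47.9 to 75.4. Acta2 had 38.9, 2.89, 51.2 and 119 CPM in the control pools and 77.1, 8.58, 58.1 and 394 in the HU pools. Tag 4 was the highest pool on both sides and held 424 HR- luminal cells in control and 128 in HU. Col4a1 and Col4a2, the chains of basement membrane collagen IV, rose from 44.1 to 77.0 and from 26.8 to 44.1 CPM. Of 6 contractile genes measured, 4 had a ratio above 0 and 2 below, 1 of them past 1.5-fold. Of 13 epithelial to mesenchymal and matrix genes, 7 were above 0 and 6 below. The median of the matrix list was 0.05 beside 0.01 over all genes, and 0.77 in tag 4. In each list 2 were called higher, where 0.238% of genes were. Of the basal keratins and regulators, 7 were measured in HR- luminal cells, 4 with a ratio above 0 and 3 below. Of these 0 were called, where 0.238% of genes were called higher. The sum of that list was 694.5 CPM in control and 688 in HU, but 667 and 769 in tag 4. Below 20 CPM, Krt5 had 14.0 and 19.1 CPM and Trp63, the basal regulator p63, 9.13 and 9.18. In tag 4 Krt5 went from 13.8 to 27.6 CPM and Trp63 from 9.15 to 17.0. The basal markers Krt17 and Id4 went from 4.69 to 31.2 and from 9.78 to 34.2 there. Vim, another basal marker, went the other way in tag 4, from 18.4 to 13.1 CPM. Of the Acta2 UMIs 24.5% in control and 21.4% in HU were in 5 cells. The part of basal transcripts in these rises was not tested. Snhg15, a non-coding RNA, and S100a8, an inflammatory calcium-binding protein, completed the list, with log2 ratios of 0.73 and 0.68 that were -0.01 and 0.11 between the wild-type libraries. Snhg15 reached 20 CPM only in HU, where 25.8% of its UMIs were in 5 cells. Without the 5 highest cells of each library it had 9.77 CPM in control and 15.1 in HU.

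Lalba, the milk whey protein and lactose synthase subunit, had 331 CPM in control and 641 in HU and was not called, because its pools disagreed. Tags 1 and 3 were at 409 and 314 CPM in control and at 718 and 859 in HU, but tag 2 was at 86.2 and 47.3 and tag 4 at 592 and 215.

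Letm2, which codes for a relative of an inner mitochondrial membrane transporter, had the most even fall. It is on chromosome 8 from 25578490 to 25597582 of GRCm38. Its pools had 34.5, 34.5, 36.5 and 19.1 CPM in control and 15.0, 14.4, 12.7 and 7.79 in HU, so that all HU pools were below all control pools. The library went from 32.1 CPM (30.9 to 33.3) to 13.5 (12.7 to 14.4), a fall by 1.19 on the log2 scale (pool mean -1.25, SD 0.14), and the wild-type libraries differed by -1.41. G0s2, an inhibitor of triglyceride breakdown, had 133, 128, 107 and 89.2 CPM in the control pools and 53.9, 38.7, 59.1 and 85.7 in the HU pools. Its pools did not overlap, although tag 4 moved by only a few CPM. Dusp6, a phosphatase that ends Erk signalling and is induced by it, had 246, 329, 237 and 239 CPM in control pools and 146, 229, 137 and 206 in HU pools. It fell from 260 to 158 CPM over the library and from 235 to 159 CPM between the wild-type libraries.

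Other falls stood partly in single pools. Pglyrp1, an antibacterial peptidoglycan-binding protein, fell from 4342 to 2410 CPM and was lower in HU in each tag, although the groups of pools overlapped. Fcgbp, a mucin-like secreted protein, fell from 440 to 259 CPM and stood mostly in tags 1 and 3, at 612 and 784 CPM in control and 309 and 356 in HU. Tmigd1, an adhesion protein of epithelial cells, fell from 111 to 43.1 CPM. It had 479 CPM in tag 2 of control and 252 in tag 2 of HU but no more than 10.1 elsewhere, and HR- luminal cells of that tag numbered 697 in control and 408 in HU. Fetub, a secreted protease inhibitor, was likewise high in tag 2 alone. Cxcl1, a neutrophil chemokine, fell from 51.6 to 20.02 CPM, by least in tag 2 (59.4 and 58.5) and by most in tag 3 (55.4 and 9.27). Of the chemokines, cytokines and acute phase genes 7 were measured and Cxcl1 was the only one called, where 0.439% of genes were called lower. The list median was -0.08. H2-Ab1, a chain of MHC class II, fell from 76.9 to 45.5 CPM. Of the 24 lower genes, 23 had a negative ratio between the wild-type libraries as well, and of the 13 higher genes 11 had a positive one. Over all genes compared 66.6% had the same sign in both genotypes, against 34 of the 37 called (91.9%). Without tag 2 the number of lower genes was 15, and without tag 4 it was 50.

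**Figure D2:**
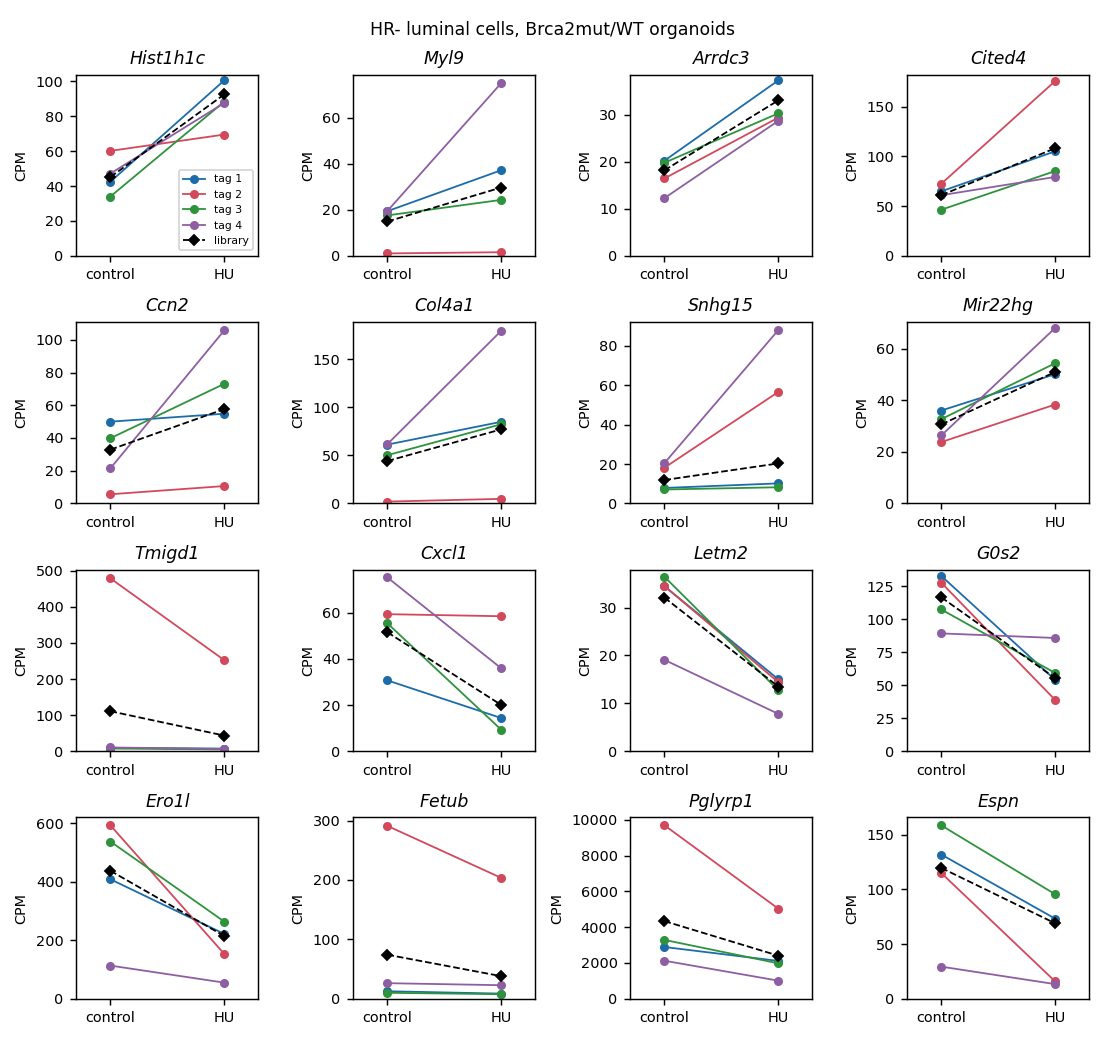
CPM in control and HU HR- luminal cells of the 8 largest rises and the 8 largest falls named, with 1 line for each tag pool and a dashed line for the whole library, all axes starting at 0. Lines of Hist1h1c, Arrdc3, Letm2 and G0s2 run between ranges that do not overlap, whereas Tmigd1 and Fetub are high only in tag 2.

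Genes of hypoxia and glycolysis, a list of 33, were lower in HU in all 3 gates. In HR- luminal cells 29 were measured at 20 CPM or more, all 29 had a log2 ratio below 0 and 19 were lower in HU in all 4 pools, where 10.5% of all genes were. Only 2 of the 29 were called lower, against 0.439% of genes. The median of the list was -0.40, beside 0.01 over all genes. It was -0.40 in tag 1, -0.93 in tag 2, -0.37 in tag 3 and -0.23 in tag 4, and -0.26 between the wild-type libraries.

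Ero1l, the oxidase that forms disulfide bonds in the endoplasmic reticulum and a known Hif1 target, was the only gene of the list called lower in all 3 gates. In HR- luminal cells it had 408, 593, 537 and 113 CPM in control pools and 222, 153, 264 and 55.1 in HU pools. Each tag was lower in HU, but tag 4 of control lay below 3 of the HU pools. The library went from 437 CPM (433 to 442) to 214 (211 to 218), a ratio of -1.02, and the wild-type libraries differed by -0.62. Egln1, an oxygen-sensing prolyl hydroxylase that marks Hif1 for destruction, fell from 240 to 157 CPM. Genes past 1.5-fold but not in every pool included Vegfa, the angiogenic factor (118 and 62.2 CPM), Adm, the vasodilator adrenomedullin (25.1 and 9.43), and Ndrg1, a stress protein (94.9 and 56.0), all of which were higher in HU in tag 4. Of these, Adm reached 20 CPM only in control, so the filter itself favoured its fall. The glycolytic enzymes moved less: Gapdh had 3277 and 2488 CPM and Ldha, lactate dehydrogenase, a ratio of -0.14. When each cell was thinned to 5000 UMIs, which left out 288 control and 198 HU cells, the median HR- luminal cell had 88 UMIs of the list in control (quartiles 63 and 120) and 73 in HU (52 and 95). By tag these medians were 83, 108, 89 and 64 in control and 74, 68, 77 and 49 in HU, lower in HU in each.

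In basal cells 9 of 32 measured members fell, where 1.31% of genes did, 31 had a ratio below 0 and 28 were lower in all 3 pools compared. The median was -0.33 (tags 1, 3 and 4 at -0.34, -0.52 and -0.58), beside 0.03 over all genes. Ndufa4l2, a mitochondrial subunit paralogue of hypoxic cells, had 773, 852 and 685 CPM in tags 1, 3 and 4 of control and 585, 369 and 153 in HU. Ddit4, an mTOR inhibitor, had 267, 264 and 151 CPM and then 105, 87.7 and 133. Ankrd37, a small nuclear protein, had 48.6, 43.6 and 22.3 CPM and then 16.2, 16.9 and 10.5, and Pfkfb3, which makes the main activator of glycolysis, had 33.6, 31.5 and 22.3 CPM and then 10.2, 17.4 and 7.90. Each of these 4 had separate pools. Adm, P4ha2, Ndrg1, Egln3 and Ero1l were the other genes that fell. In HR+ luminal cells, where only tag 4 could be compared, 14 of 32 fell (4.6% of genes did) and 30 had a ratio below 0, with a median of -0.45 beside 0.05 over all genes. Vegfa went from 176 to 82.9 CPM, Adm from 88.8 to 16.7, Ero1l from 393 to 160 and Car9, the membrane carbonic anhydrase, from 99.3 to 48.1. The medians between the wild-type libraries were -0.54 in basal and -0.60 in HR+ luminal cells. The list median stayed below 0 under every alternative computed, from -0.50 to -0.32 in HR- luminal, -0.50 to -0.23 in basal and -0.56 to -0.18 in HR+ luminal cells, the last value without tag 4.

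**Figure D3:**
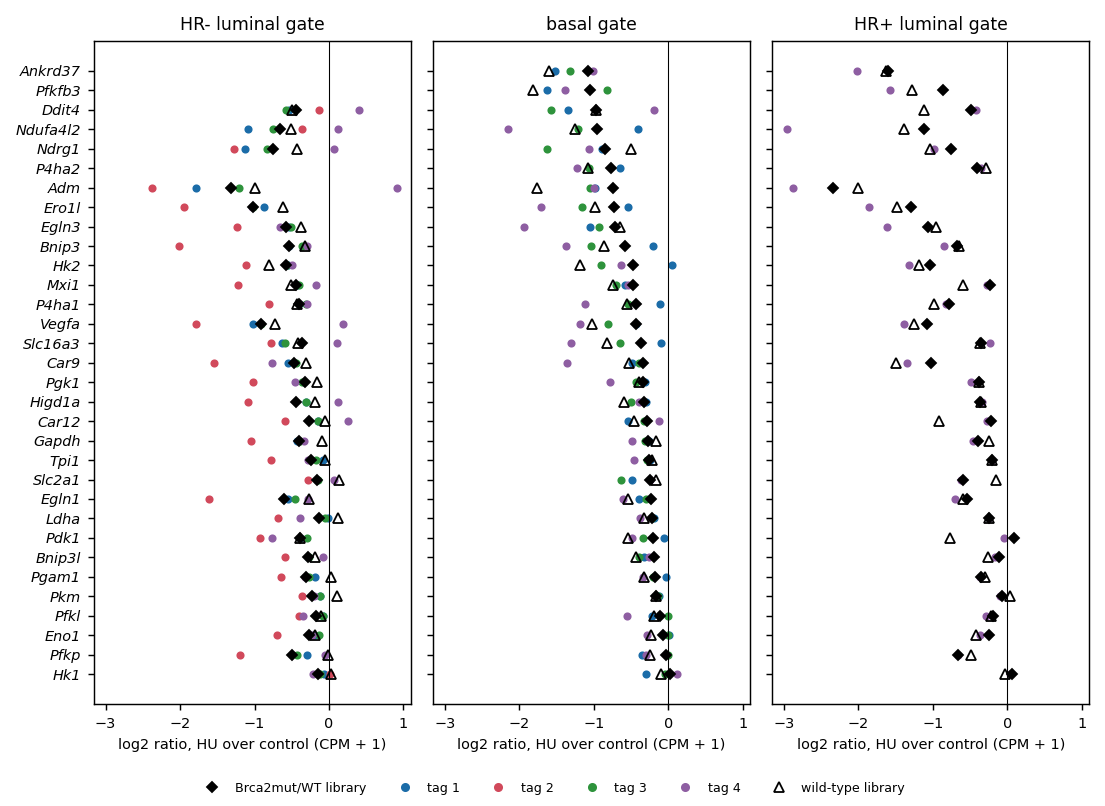
log2 ratio of HU over control (CPM + 1) for each measured gene of the hypoxia and glycolysis list in the 3 gates, with the Brca2mut/WT libraries as black diamonds, tag pools as coloured points and the wild-type libraries as open triangles. All 29 diamonds in HR- luminal, 31 of 32 in basal and 30 of 32 in HR+ luminal cells lie left of 0.

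Over the 3 gates 17 members fell in at least 1 and 7 in at least 2 (Adm, Ankrd37, Egln3, Ero1l, Ndrg1, Ndufa4l2 and Pfkfb3). Hif1 is known to bind a short core motif, and only the form ACGTG was searched. The 200 bases before the transcription starts of these genes are shown where they hold ACGTG, because they are the stretch a reader would search. They are from RefSeq (GRCm38.p6), read 5′ to 3′ on the strand of the gene, with ACGTG or its reverse complement CACGT in capitals. A RefSeq entry was at hand for 5 of the 7 genes. Ero1l (chr14:45318573-45318772, minus strand, named Ero1a in RefSeq) had its match 63 bases before the start, Ankrd37 (chr8:45999851-46000050, minus strand) 6 bases before it, and Pfkfb3 one at each of its starts (chr2:11553930-11554129 and chr2:11502091-11502290, minus strand), where the matches on both strands overlap at the second. Adm and Egln3 had no ACGTG or CACGT in this window. Other forms of the core motif were neither searched nor put in capitals.
Ero1l: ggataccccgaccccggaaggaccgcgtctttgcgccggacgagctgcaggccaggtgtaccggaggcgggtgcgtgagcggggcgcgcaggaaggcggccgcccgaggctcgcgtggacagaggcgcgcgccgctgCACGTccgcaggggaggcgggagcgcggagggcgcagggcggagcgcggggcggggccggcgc
Ankrd37: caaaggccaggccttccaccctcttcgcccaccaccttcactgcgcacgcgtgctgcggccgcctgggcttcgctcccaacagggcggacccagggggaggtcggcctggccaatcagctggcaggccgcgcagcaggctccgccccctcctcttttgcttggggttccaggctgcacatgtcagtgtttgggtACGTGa
Pfkfb3, start 1: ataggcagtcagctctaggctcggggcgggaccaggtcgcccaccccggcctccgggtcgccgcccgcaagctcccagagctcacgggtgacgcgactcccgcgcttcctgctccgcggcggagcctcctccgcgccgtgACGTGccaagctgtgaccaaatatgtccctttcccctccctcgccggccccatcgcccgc
Pfkfb3, start 2: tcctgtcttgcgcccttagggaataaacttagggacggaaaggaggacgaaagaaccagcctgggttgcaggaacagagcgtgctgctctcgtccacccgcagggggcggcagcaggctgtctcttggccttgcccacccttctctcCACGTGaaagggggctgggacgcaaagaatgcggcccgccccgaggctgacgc
On either strand ACGTG stood in this window of 18 of the 30 list genes with an entry (60%) and of 4231 of all 27025 genes (15.7%). By entry it was 47.6% of 42 and 13.95% of 32851. The list was drawn up as genes of hypoxia and glycolysis, so this excess may come with the choice of genes and does not bear on HU. The match describes the letters and not a site in use.

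Basal cells had more called genes than HR- luminal cells, on fewer cells: 53 of 5890 rose (0.9%) and 77 fell (1.31%), in tags 1, 3 and 4 with 58, 116 and 126 control cells and 104, 92 and 69 HU cells. Tags of 1 library differed past 1.5-fold at 4.16% to 21.9% of genes and the libraries at 3.34%. The same tag set HU against control gave 9.05% to 11.6%. A common direction was asked of 3 pools here and of 4 larger pools in HR- luminal cells. The counts of these 2 gates are therefore not on 1 footing. In 33 of the rises (0.56%) and 41 of the falls (0.696%) the pools did not overlap. Them5, a mitochondrial acyl-CoA thioesterase, rose most, from 11.5, 5.45 and 12.7 CPM to 33.7, 23.9 and 112. Tag 4 of HU was far above the other pools, and without it the ratio was 1.54 in place of 2.12. Apoe, the lipid carrier apolipoprotein E (chromosome 7, 19696109 to 19699188), rose from 660, 355 and 287 CPM to 1002, 909 and 835, in all 3 pools above every control pool. Its library level was 375 CPM (361 to 390) in control and 889 (867 to 911) in HU, and between the wild-type libraries it was 174 and 428.

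Further basal rises are given by gene. Them5, Mmp2, Mme and Plpp1 reached 20 CPM only in HU, so the filter itself favoured their rise. Bgn, the proteoglycan biglycan, went from 18.5, 17.6 and 26.0 CPM to 51.6, 52.5 and 45.8, and Mmp2, a gelatinase, from 15.0, 4.61 and 17.6 to 35.7, 29.6 and 22.1. Sfrp1, a secreted Wnt inhibitor, rose from 54.3 to 107 CPM, and Cntfr, a cytokine receptor chain, from 33.4 to 66.2, both with separate pools. Mme, the surface peptidase CD10, Plpp1, a lipid phosphatase, and Postn, the matrix protein periostin, rose with log2 ratios of 1.296, 0.92 and 0.79. The epithelial to mesenchymal and matrix list did not move as a group, with 11 of 23 measured genes above 0, 12 below, 2 called higher (Mmp2 and Postn), 1 lower (Tgfbi) and a median of -0.03. Over all basal genes 0.9% were called higher and 1.31% lower. The basal keratins and regulators were not called in either direction (0 of 18 measured, median 0.13), and neither were the 10 contractile genes measured (median 0.04, with tag 1 at 1.27).

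The largest basal falls included genes of keratinizing, squamous epithelium whose UMIs stood in few cells. Sprr1b, a cornified envelope protein, had 42.4, 128 and 215 CPM in control pools and 17.1, 9.85 and 8.95 in HU pools, but 83.6% of its control UMIs were in 5 cells. Cstdc5, a cystatin-like inhibitor, fell from 301 to 39.7 CPM with 75.4% of its control UMIs in 5 cells, and Acta1, skeletal muscle actin, from 26.8 to 7.92 with 93.2% in 5. The squamous list had a median of -0.62, but its pools stood at 0.31, -1.53 and -0.14. Other falls included Inhba, a chain of activin (115 to 33.6 CPM), Fcgbp (33.97 to 9.56, with separate pools, but 50.4% of its control UMIs in 5 cells, without which it had 17.2 and 8.19 CPM) and Ier3, a stress-induced survival gene (504 to 307, with separate pools). Cdkn1a, the p53 target and cell cycle inhibitor p21, fell from 181 to 113 CPM, at 140, 161 and 205 CPM in the control pools and 78.0, 47.9 and 177 in HU. Ube2c, a ubiquitin ligase partner of mitosis, and Prc1, a spindle protein, fell in the 3 pools, with ratios of -1.38 and -1.07, where the wild-type libraries had 0.84 and 0.66. Of the control UMIs of Ube2c 58.7% were in 5 cells. Its ratio was 0.20 under wider cell limits, so its direction depended on which cells were kept. These had no upper limit on genes and allowed under 10% mitochondrial UMIs, and both were changed together. Of the 130 called basal genes 113 had the same sign between the wild-type libraries (86.9%, beside 64.3% of all genes). Without tag 4 the counts were 159 rises and 177 falls from 2 pools, and without tag 1 they were 81 and 128.

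HR+ luminal cells were the fewest, 140 in each library, and only tag 4 (96 and 66 cells) had enough cells to be compared, so that the demand for a common direction was weak: 219 of 6092 genes rose (3.59%) and 280 fell (4.6%). When cells over 6000 genes were let in and the mitochondrial limit was 10%, 53 rose and 80 fell. The largest rises were chemokines that came from 1 cell. Ccl2 had 0 UMIs in control and 145 in HU, of which 113 were in 1 cell, and of 388 UMIs of Ccl5 381 were in 1 cell. Of 115 UMIs of Cxcl10 in HU 102 were in 1 cell. These genes draw monocytes and T cells and are induced by interferon or other inflammatory signals.

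Interferon-stimulated genes rose in the sum of HR+ luminal cells. Of 39 measured members of the type I interferon list 15 rose, where 3.59% of genes did, and the median was 0.43 (0.48 in tag 4) beside 0.05 over all genes. Interferon-stimulated genes such as Cmpk2, Ifit3b and Oasl1 reached 20 CPM only in HU. For such genes the filter itself favoured a rise, in the count and in the median. Ifit3, an antiviral tetratricopeptide protein, went from 23.8 to 203 CPM, Rsad2, the antiviral enzyme viperin, from 51.4 to 185, and Isg15, a ubiquitin-like modifier, from 304 to 681. Reads of Ifit3 and its near copy Ifit3b may be shared. Of the Ifit3 UMIs in HU, 76.1% were in 5 cells, and in control 30.5% were. As an alternative chosen after seeing the data, each gene was summed without the 5 cells of each library that held most of it. Ifit3 then had 16.8 and 51.3 CPM, Rsad2 29.2 and 53.5, and Isg15 241 and 450.0. In this setting 10 of the 39 were called and the median was 0.21. Only the library ratio was recomputed there: the 20 CPM filter and the direction of the pools still used all cells. Under the wider cell limits the median was 0.11. The median HR+ luminal cell, thinned to 5000 UMIs, had 18 UMIs of the list in both libraries. Thinning left out 13 of the 140 control and 38 of the 140 HU cells of this gate. Between the wild-type libraries the list median was 0.01. Of the 6 interferon-inducible GTPases measured, which attack the vacuoles of pathogens, 5 rose, where 3.59% of genes did. Without the highest cells 3 rose, where 218 of 6092 genes did. Igtp, one of this family, reached 20 CPM only in HU, so the filter itself favoured a rise.

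**Figure D4:**
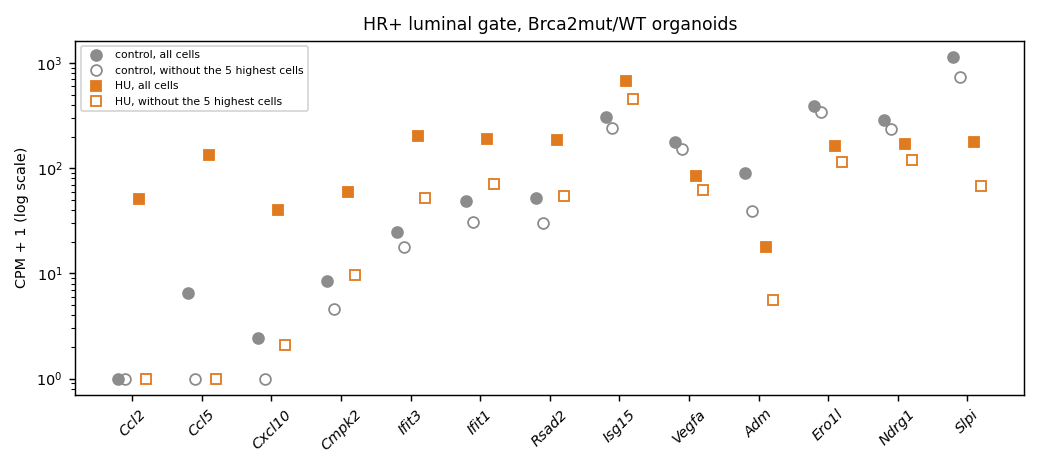
CPM + 1 on a log scale of 13 genes in HR+ luminal cells of the control (grey circles) and HU (orange squares) library, with all cells (filled) and without the 5 cells of each library that held most of the gene (open). Ccl2 and Ccl5 drop to 0 CPM without those cells, and Ero1l, Vegfa, Adm and Ndrg1 stay lower in HU both ways.

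Among HR+ falls, Slpi, a secreted protease inhibitor of mucosa, went from 1147 to 176 CPM and from 740 to 67.0 without the highest cells. It fell in tag 4 from 1015 to 74.0 CPM. Its ratio was -2.70, but -0.38 under the wider cell limits. Tph1, the serotonin-producing tryptophan hydroxylase of luminal cells, went from 136 to 25.3 CPM, and Sprr1a, a cornified envelope protein, from 3022 to 962. Fabp5, Krt5, Krtdap and Dmkn, genes of keratinocytes, stood in a few control cells: 94.0% of the control UMIs of Fabp5 were in 5 cells, without which it had 44.3 and 40.7 CPM, and Krt5 had 11.0 and 8.04 CPM without its 5. Under the wider cell limits, Fabp5, Krtdap, Dmkn and Klk6 turned to log2 ratios of 1.004, 2.32, 0.37 and 0.47. Dcn, which codes for decorin and is a stromal marker in tissue, fell from 1515 to 938 CPM. In these cells it stood nearly alone among the 11 stromal markers, whose sum was 1581 and 1018 CPM and of which 7 had no UMI in either library. The part of stromal cells in this fall was not tested.

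In the large HR- luminal gate the interferon list did not move as a group. Of 39 measured genes 0 were called, where only 0.238% of all genes were called higher and 0.439% lower, so this count says little. A ratio above 0 was seen in 17 of the 39. The list median was -0.03 (tags 1 to 4 at 0.08, 0.24, 0.09 and -0.52), beside 0.01 over all genes. Under the wider cell limits the median was 0.11. The thinned median cell had 41 UMIs of the list in control and 38 in HU. In tag 2, which had the highest level in both libraries, it had 76 and 92.5, and in tag 4 47 and 30.5, so that pools moved in opposite directions. The GTPases had a median of 0.15 with the same split (0.59 in tag 2 and -0.37 in tag 4), and the 16 measured genes of MHC class I and peptide loading a median of -0.02. In basal cells the interferon median was 0.14 (0.25, 0.09 and 0.14). Of 33 measured genes Sp100, a nuclear body protein, was called higher and Isg20, an antiviral exonuclease, lower. Over all basal genes 0.9% were called higher and 1.31% lower. Under the wider cell limits the basal interferon median turned to -0.08, and between the wild-type libraries it was -0.27. Iigp1, an interferon-inducible GTPase, rose in basal cells from 16.0 to 30.7 CPM with separate pools. It reached 20 CPM only in HU, so the filter itself favoured this rise.

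The p53 targets of HR- luminal cells differed by little but in the same direction in each pool. Of 15 measured, 12 had a ratio above 0 and 11 were higher in all 4 tags, where 25.3% of all genes were, while 0 reached the threshold for a call. The median was 0.14, and 0.21, 0.29, 0.26 and 0.38 in tags 1 to 4, each above the library value. Trp53inp1, a p53 cofactor in cell death and autophagy, had 33.4 and 46.0 CPM (ratio 0.45) and Phlda3, an inhibitor of Akt, 63.6 and 81.6 (0.35). Mdm2, the ligase that degrades p53, had 40.2 and 45.9 CPM, and Cdkn1a had 246 and 272 CPM with ratios of 0.39, 0.15, 0.60 and 0.82 by tag. The wild-type libraries had a list median of 0.27. After thinning to 5000 UMIs, 44.6% of control and 50.9% of HU cells held 10 or more UMIs of the list. By tag this share went from 30.7% to 45.2%, from 77.7% to 87.8%, from 25.02% to 34.9% and from 68.2% to 75.8%. In basal and HR+ luminal cells the medians were -0.06 and -0.03.

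Genes of mitosis were lower in the HR- luminal sum. Of 12 measured, 3 were called lower (Mki67, Hmmr and Prc1, which serve the chromosome surface and the spindle), where 0.439% of genes were. A ratio below 0 was seen in 11, with a median of -0.50. Mki67 (29.8 and 19.5 CPM), Top2a (24.1 and 14.9) and Ccnb2 (25.9 and 19.9) reached 20 CPM only in control. The filter itself thus favoured a fall, and the count and the median rest partly on such genes. Summed over all members without the filter, the list had 696 CPM in control and 527 in HU, but 553 and 615 in tag 4. The pools differed: the median was -0.54 in tag 1, -0.15 in tag 2, -0.98 in tag 3 and 0.05 in tag 4. Mki67, the proliferation antigen Ki-67, had 31.2, 34.8, 29.5 and 22.8 CPM in control and 21.7, 30.4, 12.5 and 19.5 in HU. Under the wider cell limits the list median was -0.15, and at 50 CPM or more it was -0.14. Cells with 10 or more UMIs of the list after thinning were 4.81% of control and 4.51% of HU, in tags 1 and 3 4.15% and 3.84% against 3.19% and 1.91%, in tag 2 6.57% against 10.1%, and in tag 4 5.30% against 4.84%. With 5 or more UMIs they were 7.23% of control and 7.52% of HU, so that the lower sum was not matched by a lower share at this threshold. In HR+ luminal cells 6 of the 42 mitosis genes were measured and 4 were called higher (Birc5, Cdk1, Cenpa and Hmgb2), where 3.59% of genes were. Without the highest cells of each gene 2 were called. Birc5 (12.2 and 20.1 CPM) and Cdk1 (13.9 and 22.9) reached 20 CPM only in HU, so the filter itself favoured a rise. The count and the median of 0.64 rest partly on such genes, and no conclusion is drawn from them. Under the wider cell limits the median was 0.080. S phase genes had a median of -0.08 in HR- luminal cells with 0 of 10 called and 0.17 in HR+ luminal cells with 0 of 11 called. In basal cells their median was 0.14, with 1 of 20 called higher, where 0.9% of genes were. This was Mcm4, a subunit of the replicative helicase (16.1 and 25.8 CPM), which reached 20 CPM only in HU. Of the homologous recombination and Fanconi genes 1 was measured in HR- luminal and 3 in basal cells, with 0 called in either.

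**Figure D5:**
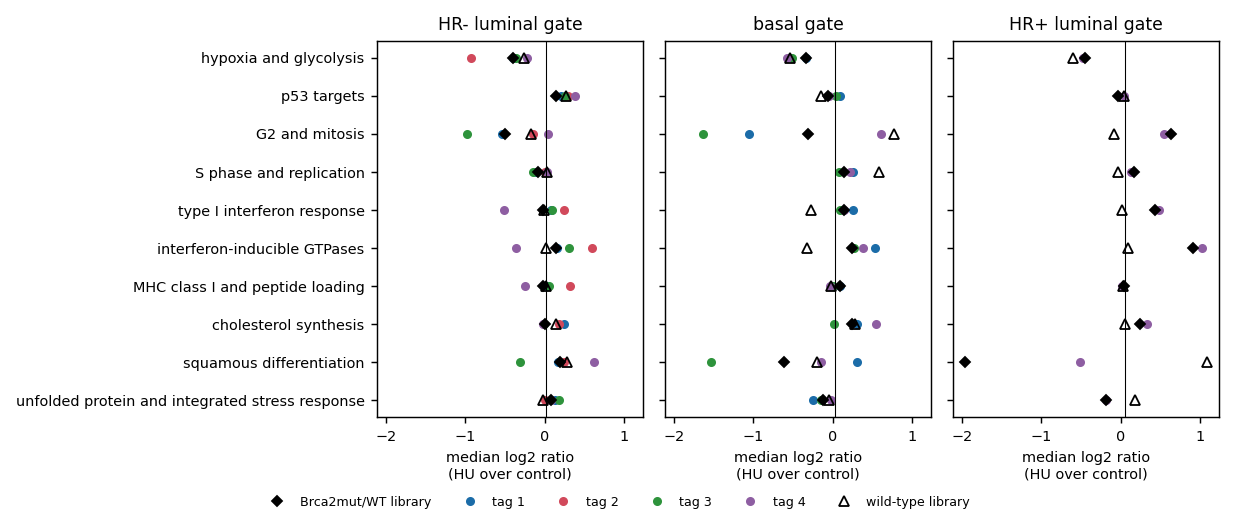
Median log2 ratio of HU over control for gene lists in the 3 gates, with the Brca2mut/WT libraries as black diamonds, tag pools as coloured points, the wild-type libraries as open triangles and the median over all genes as a vertical line. Hypoxia and glycolysis lies left of the line in every gate and pool, while G2 and mitosis runs from -0.98 to 0.05 between the HR- luminal pools.

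Of 10 MHC class II genes, which present antigen, 2 were measured in each gate, and both were lower in HU. The median was -0.43 in HR- luminal cells (tags 1 to 4 at -0.37, -2.11, -0.43 and -0.41), where H2-Ab1 fell, -0.77 in basal cells, where H2-Ab1 and H2-DMb1 both fell, and -0.78 in HR+ luminal cells, where H2-Ab1 fell. Over all genes 1.31% were called lower in basal and 4.6% in HR+ luminal cells. Between the wild-type libraries the medians were -0.04, -0.24 and -0.47. In each of HR- luminal and basal cells, 1 of 4 wild-type pool medians was above 0. Among other lists of the HR- luminal cells the median was 0.08 for the unfolded protein response, 0.05 for fatty acid synthesis, -0.10 for immediate early genes, -0.02 for senescence and -0.01 for apoptosis, with 0 genes called in each. It was 0.01 for genes of the HR- and alveolar cells, where Cxcl1 was the only one called, and 0.16 for contractile genes, where Acta2 and Myl9 rose. Over all HR- luminal genes only 0.238% were called higher and 0.439% lower, so 0 calls in a list says little.

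Markers of cells outside the epithelium were scarce in HR- luminal cells. The 11 stromal markers summed to 10.4 CPM in control and 7.32 in HU, the 14 immune markers to 2.99 and 2.73, the 8 endothelial markers to 3.04 and 3.38 and the 6 adipocyte markers to 0.185 and 0.155. Of these, 2, 5, 4 and 1 genes had no UMI in either library. Over all called genes the ratio in the 2 genotypes went the same way in 67.5% of the 499 HR+ luminal genes, beside 60.7% of all genes compared there.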

How the data were processed

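The authors deposited, per the labels, filtered 10x tables of UMI counts, whole numbers without normalization, for 32285 genes and 4 antibody tags in each of 4 libraries. The submitters' processing notes name Cell Ranger 6.0.2, mm10, Seurat 4.0 and R 4.1.3, and the file headers name Cell Ranger 6.1.1, and which reference annotation was used is therefore uncertain. Tags were left out of gene totals. A cell was given a tag when that tag had at least 100 UMIs and 4 times the next. The labels give 2 replicates per library without saying which cells they are. No doublet caller was run, and cells that passed both gates were left out in an alternative. Sums, ratios, intervals and figures were made with Python 3.11.15, numpy 2.4.6, scipy 1.17.1, pandas 2.3.3 and matplotlib 3.10.9. TMM factors (edgeR 4.0.16) and median-of-ratios factors (DESeq2 1.42.0, R 4.3.3) were used for scaling only. Ratios are of CPM + 1 at a threshold of 1.5-fold. Gene positions are from GENCODE M21 on GRCm38.

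The genes named were the 12 largest rises and falls in HR- luminal cells and the 8 largest in the other gates among called genes, leaving out Krt14, Areg, mitochondrial and predicted genes, with the 4 highest members and all called members of each of 28 lists, Brca2 and the markers. Other members of a list, Taf1d and the genes given for their pools were named after their values were seen. Members and lists were chosen with earlier results of these data known. The lists held 662 gene entries, of which 654 were in the files. Alternatives changed the cell filter, gates, tags, scaling, low-value filter, pseudocount and threshold. The wild-type libraries were used only for side-by-side values.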

Additional observations from a re-analysis of the deposited data

Results flagged for a closer look

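Sp100 in basal cells had a log2 ratio of HU over control of 0.67 in the Brca2mut/WT libraries, up in all 3 pools compared, and of -0.46 between the wild-type libraries, down in all 4 pools. The type I interferon list in basal cells had a median of 0.14 with all 3 pools above 0, and of -0.27 in the wild type with all 4 pools below 0. Both were singled out because every pool moved one way in one genotype and the other way in the other. The difference between genotypes was not tested, since each condition has 1 library. The basal interferon median was -0.08 in the Brca2mut/WT libraries under the wider cell limits.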

How the results depend on the processing

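No analysis paired by replicate was possible because the labels give no replicate numbers that the libraries share. The calls set pools of the same tag against each other, and whether these match is not known. Rises and falls in HR- luminal, basal and HR+ luminal cells were 13 and 24, 53 and 77, and 219 and 280. A 2-fold threshold gave 1 and 6, 6 and 17, and 49 and 92. A filter at 5 CPM gave 33 and 50, 181 and 201, and 684 and 653, no filter gave 51 and 68, 400.0 and 381, and 1381 and 1391, and a filter at 50 CPM gave 7 and 16, 14 and 45, and 87 and 126. The wider cell limits, with no upper gene limit and under 10% mitochondrial UMIs, gave 8 and 29, 29 and 46, and 53 and 80. Tags weighted equally gave 28 and 30, 76 and 103, and 339 and 371. A pseudocount of 5 CPM gave 33 basal rises. TMM gave 12 and 27, 41 and 92, and 175 and 325. Leaving out each tag in turn gave 10 to 19 and 15 to 50, 51 to 159 and 78 to 177, and 236 to 254 and 279 to 310, where no HR+ count was possible without tag 4. The share differences then ran from -5.02 to -2.39, 1.58 to 3.33 and 0.56 to 2.06 points. With 1 dominant tag the HR+ difference was -0.30 points, with cells of at least 5000 UMIs it was 0.038, and with stricter gates the basal one was 0.56.

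Of 1251 list medians under alternatives 113 changed sign, among them the interferon medians under the wider cell limits (basal -0.08, HR- luminal 0.11). Direction was followed for called genes, and for lists with a median beyond 0.2 either way and of the same sign in every pool. Under the wider cell limits it turned for Ube2c in basal cells (0.20). In HR+ cells it turned under these limits for Dmkn (0.37), Fabp5 (1.004), Klk6 (0.47), Krtdap (2.32) and the squamous list (0.31). In HR+ cells it also turned for Ccl5 with stricter gates (-2.08), for the homologous recombination list with tags weighted equally (0.36), at 5 CPM (0.062) and with no filter (0.090), and for the stromal list with no filter (0.50) and without tag 4 (0.50), where leaving out each tag gave -0.37 to 0.50. In the main setting these 2 HR+ lists rested on 1 and 2 measured genes in 1 pool, so a common sign over pools was automatic. A lower filter also lets in other members. The cause was not tested. Of 1008 values for named genes under alternatives, 852 kept their direction and call, 150 lost the call and 6 turned. With 1 library a side, depth limits only counting error, and the spread between organoid cultures is unknown.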
